A study of Homo sapiens with 6 samples.

Results

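Polycomb proteins and the enzymes that write or erase methyl groups on histone lysines were followed as a set of 38 genes in HCT116 cells, an established line from a human colon tumour, that had received either siRNA directed at ADNP (siADNP) or control siRNA (siControl). The 38 genes were chosen by symbol from the 23368 symbols of the count table and comprise 8 subunits of Polycomb repressive complex 2 (PRC2), 15 subunits of Polycomb repressive complex 1 (PRC1), 5 methyltransferases of histone H3 lysine 9 and 10 lysine demethylases. All 38 passed the filter on low counts, so all of them are among the 12489 genes tested. Each group held 3 libraries, made from total RNA, of this single cell line; siRNA dose and time after transfection are not given in the labels. The study's design text calls them biological replicates; separate cultures are not mentioned, and p-values then reflect only the spread among these 6 libraries, which may be technical.

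As background, PRC2 methylates lysine 27 of histone H3 through its catalytic subunit EZH2 or EZH1, held together by SUZ12 and EED, and it exists in alternative forms that carry different accessory subunits. PRC1 ubiquitylates histone H2A through RING1 or RNF2, and the PCGF subunit that pairs with the RING protein defines the form of the complex. Methylation of lysine 9 by SUV39H1, SUV39H2, SETDB1, EHMT1 and EHMT2 marks heterochromatin and silenced genes, and KDM enzymes remove methyl groups. ADNP is a zinc finger and homeodomain protein known in mouse embryonic stem cells as a partner of the remodeller CHD4 and of heterochromatin protein 1, which binds methylated lysine 9.

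Reads assigned to genes numbered 7396771 to 8726017 in the siADNP libraries and 8282290 to 10265175 in the siControl libraries, and counts of the 38 genes lay between 28 and 3043 per library. ADNP mRNA averaged 53.9 ± 6.62 CPM (counts per 1000000 assigned reads, TMM-scaled) in siADNP libraries and 164 ± 8.24 CPM in siControl libraries (SD, n = 3 each), which matches the labels in all 6 libraries. The epithelial markers EPCAM, KRT8, KRT18, CDH1 and CLDN4 were all expressed, with a sum of 2632 to 2841 CPM in siADNP libraries and 2658 to 2736 CPM in siControl libraries. Of these 5, CLDN4 rose (log2 fold change 0.25, adjusted p = 0.00691, edgeR) and 4 did not pass, among them CDH1, whose siADNP libraries were all above its siControl libraries. Of 7 fibroblast or smooth muscle markers, DCN and LUM had no read in any library, DES rose, ACTA2 fell, and the summed level was 14.2 to 19.5 CPM in siADNP libraries and 14.8 to 18.5 CPM in siControl libraries. Of 5 blood markers, HBB had no read, CD68 rose, and the sum was 9.29 to 10.3 CPM in siADNP libraries and 6.87 to 7.62 CPM in siControl libraries; the part of these markers in the results was not tested. Because RNA was measured in bulk, fewer cells of a type and less RNA per cell cannot be told apart.

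With siADNP, 9 of the 38 genes rose and 4 fell (edgeR's quasi-likelihood test, Benjamini-Hochberg adjusted p under 0.05), and 25 did not pass. That is 34.2% of the set, against 28.3% of all tested genes (14.6% higher and 13.7% lower), so the set as a whole stood near the background, and its median log2 fold change of -0.03 was near the -0.00130 of all tested genes. The groups did not overlap in 17 of the 38 genes, against 40.8% of all tested genes: siADNP was above in 11 genes (20.1% of all) and below in 6 (20.7% of all). Changes were modest: the largest rise was 1.54-fold (PHF1), the largest fall left 65.6% of the control level (BMI1), and the median absolute log2 fold change of the 13 called genes was 0.27. Of the 25 genes that did not pass, 21 had a 95% interval inside a 1.25-fold change in either direction, and 5 had an unadjusted p under 0.05. By role, the share called ran from 0% (CBX genes of PRC1) to 75% (accessory subunits of PRC2), in groups of 2 to 8 genes.

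**Figure D1:**
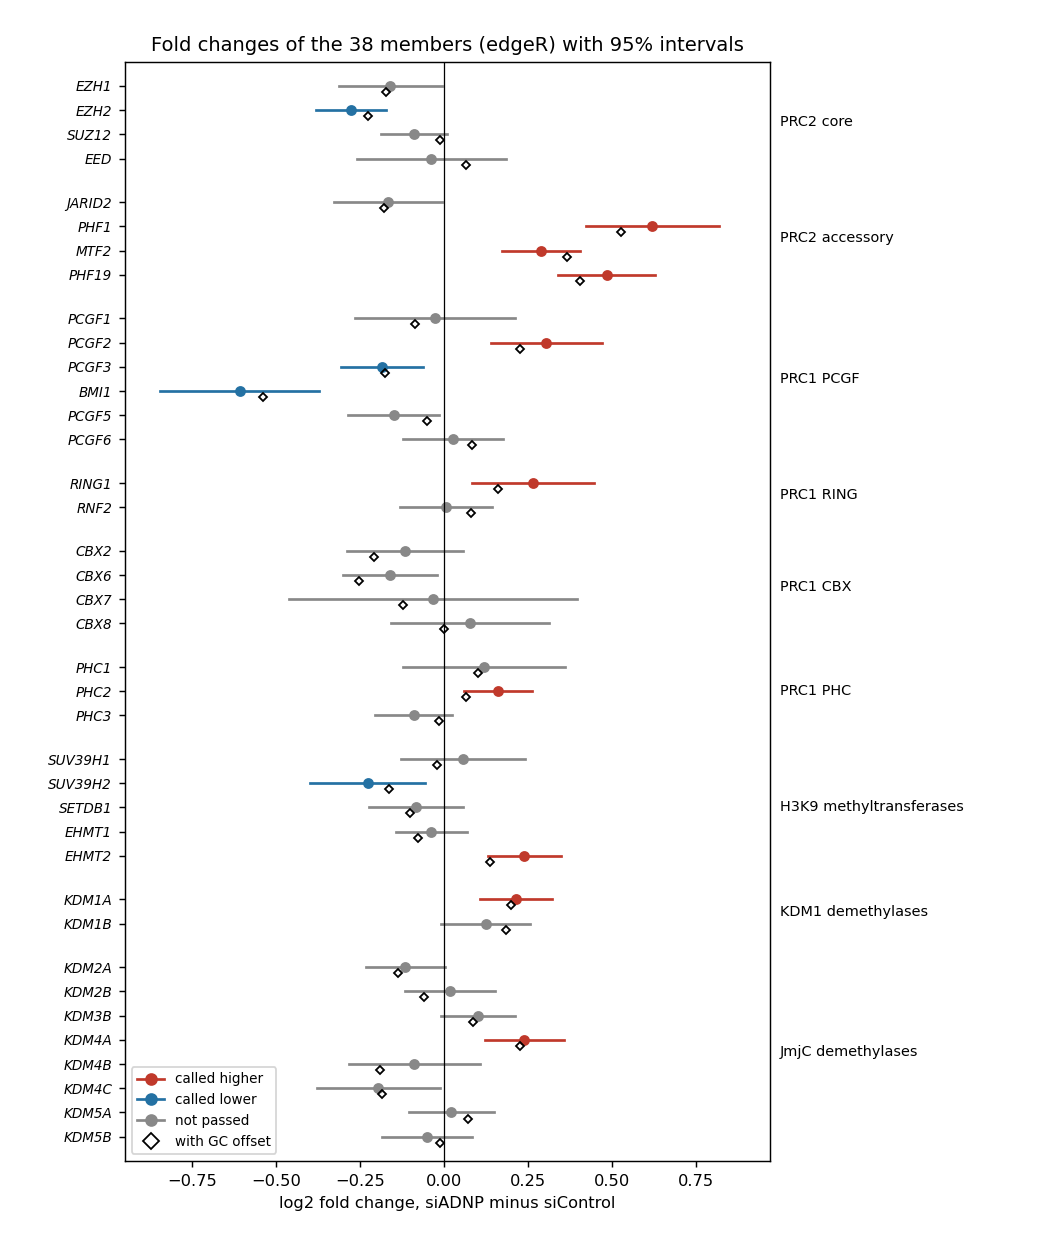
Log2 fold change, siADNP minus siControl, of each of the 38 genes (circles) with its 95% interval (lines), ordered by role, and the log2 fold change after a per-gene offset for transcript GC content (open diamonds). PHF1 and PHF19 lie highest, at 0.62 and 0.48, and BMI1 lowest, at -0.61.

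Among the PRC2 core subunits, the catalytic subunit EZH2 fell, while its paralogue EZH1, the scaffold SUZ12 and the H3-methyl-binding subunit EED did not pass. EZH2 stood at 136, 143 and 141 CPM in the siADNP libraries, against 173, 171 and 165 CPM in the siControl libraries. Every siADNP library was below every siControl library. The log2 fold change was -0.28 ± 0.05 (SE), with an adjusted p of 7.50e-05 (edgeR), or 82.5% of control.

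SUZ12 stood at 273, 283 and 269 CPM with siADNP, against 281, 299 and 298 CPM with siControl. The groups overlapped, and its interval of -0.19 to 0.01 on the log2 scale excludes a fall as large as the estimate for EZH2 (adjusted p = 0.174, edgeR). EED stood at 16.8, 20.7 and 21.0 CPM with siADNP, against 19.8, 18.4 and 22.2 CPM with siControl. This weakly expressed subunit had a log2 fold change of -0.04 and a wide interval of -0.26 to 0.18. EZH1 averaged 36.2 ± 0.916 CPM with siADNP and 40.4 ± 0.507 CPM with siControl (SD, n = 3 each), with no overlap between the groups, but its log2 fold change of -0.16 did not pass (adjusted p = 0.115, edgeR).

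Of the 4 accessory subunits of PRC2, 3 rose and 1 did not pass. Of all tested genes 14.6% were called higher, and this group of 4 was not tested as a group. PHF1, MTF2 and PHF19, the 3 human Polycomb-like proteins, which bring PRC2 to unmethylated CpG-rich DNA, all rose. JARID2, the accessory subunit of the alternative form called PRC2.2, did not pass. PHF1 stood at 27.9, 26.3 and 26.98 CPM in the siADNP libraries, against 16.6, 18.1 and 17.96 CPM in the siControl libraries. It had the largest rise of the 38 genes, and edgeR gave 0.62 ± 0.10 (log2 fold change ± SE; adjusted p = 6.41e-06).

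PHF19 stood at 61.1, 60.5 and 59.2 CPM with siADNP, against 41.3, 41.0 and 47.4 CPM with siControl. The lowest siADNP library was thus well above the highest siControl library, and the log2 fold change was 0.48 ± 0.07 (SE; adjusted p = 2.01e-06, edgeR). MTF2, the most abundant of these genes per kb of transcript, stood at 97.1, 96.5 and 100.05 CPM with siADNP, against 79.3, 81.1 and 79.6 CPM with siControl. Its log2 fold change was 0.29 ± 0.06 (SE), with an adjusted p of 0.000180 (edgeR), and the spread within each group was small beside the difference.

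JARID2 stood at 34.9, 39.4 and 44.3 CPM with siADNP, against 45.0, 44.4 and 43.6 CPM with siControl, with overlapping groups. Its log2 fold change of -0.17 did not pass (adjusted p = 0.115, edgeR) and passed without siADNP replicate 3, the highest of the siADNP libraries (-0.25, adjusted p = 0.0316, edgeR). In levels per kb of the longest transcript, MTF2 stood at 23.7 ± 0.462 CPM per kb with siADNP and 19.4 ± 0.245 with siControl, and PHF19 at 14.2 ± 0.226 and 10.2 ± 0.851 (SD, n = 3 each). PHF1 stood at 11.6 ± 0.343 CPM per kb with siADNP and 7.53 ± 0.358 with siControl, and JARID2 at 6.87 ± 0.817 and 7.70 ± 0.114. With siControl, PHF1 and JARID2 differed by less than the SD of PHF1, whereas with siADNP all PHF1 libraries were above the JARID2 mean.

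Further PRC2 subunits outside the set were read from a list of 5. LCOR, whose locus also encodes a PRC2.1 subunit known as PALI1, rose with a log2 fold change of 0.29 ± 0.06 (SE; adjusted p = 0.000604, edgeR), and C17orf96, which encodes the PRC2.1 subunit EPOP, rose with 0.32 ± 0.11 (adjusted p = 0.0277). The histone-binding subunit RBBP7 fell with -0.18 ± 0.06 (adjusted p = 0.0147), while RBBP4 (0.04) and the PRC2.2 subunit AEBP2 (0.09) did not pass. PHF1, MTF2, PHF19, LCOR and C17orf96 are all known for the PRC2.1 form, a grouping made here after their values were seen and not tested as a group. The C17orf96 call ended in DESeq2's Wald test (adjusted p = 0.105), with the GC offset (0.192) and without siADNP replicate 2 (0.0875) or 3 (0.0651) or siControl replicate 1 (0.0510), 2 (0.0738) or 3 (0.0772). The RBBP7 call ended with the GC offset (0.106) and without siControl replicate 2 (0.156).

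**Figure D2:**
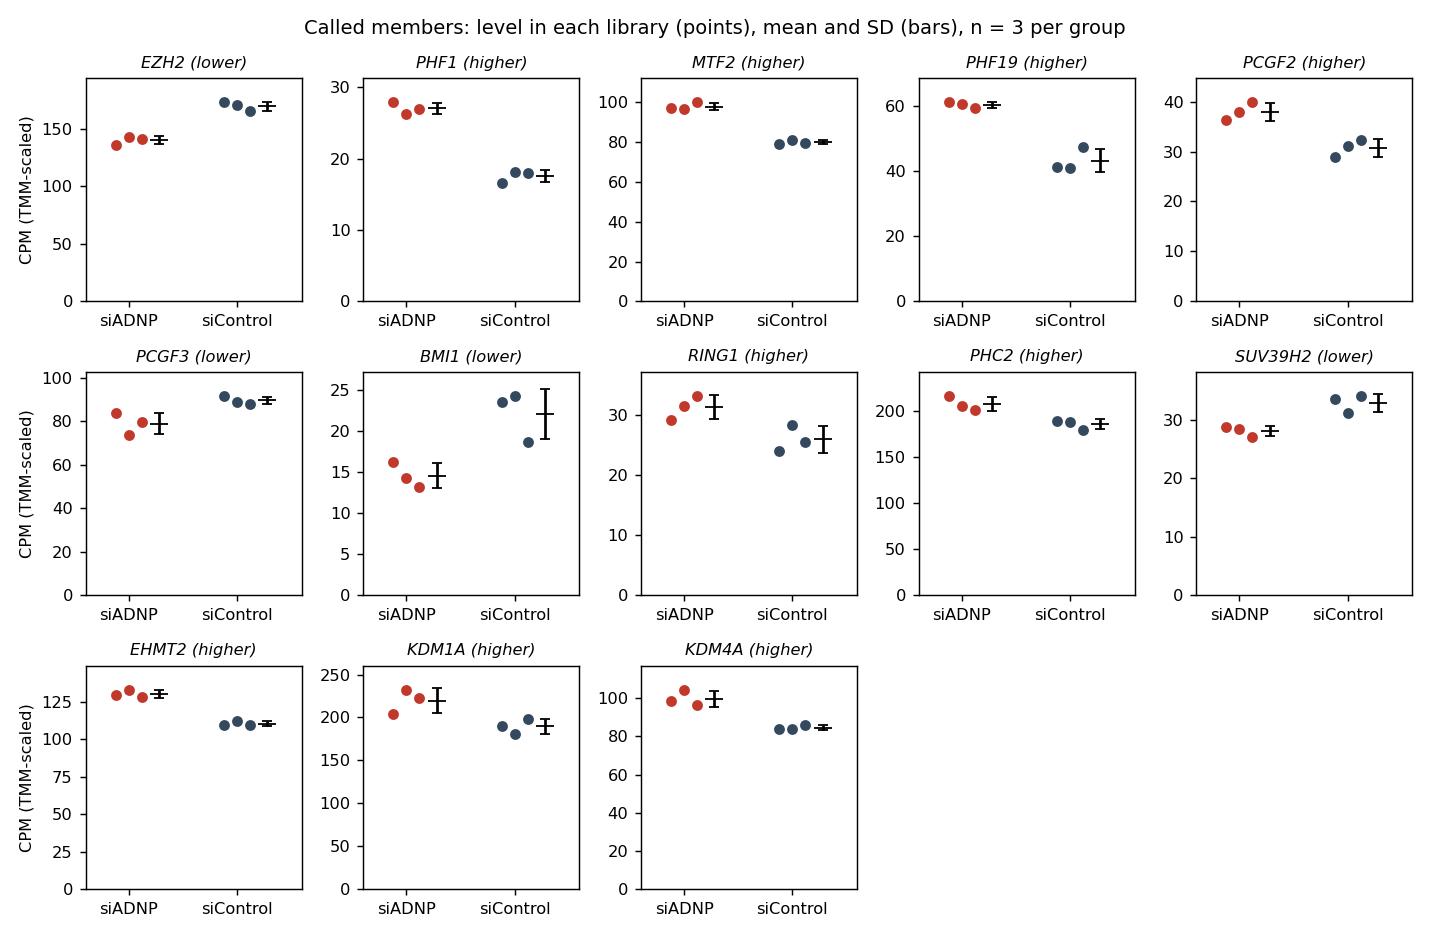
Level of each of the 13 called genes in CPM (vertical axis from 0) in the 3 siADNP libraries (left) and the 3 siControl libraries (right), with the mean and SD beside the points. In every panel the groups do not overlap, and the largest fold between means is that of PHF1, at 27.04 ± 0.799 CPM with siADNP and 17.6 ± 0.833 CPM with siControl.

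The stretches of 250 bases just before the annotated starts of the 3 Polycomb-like genes that rose together are shown beside those of EZH2 and BMI1, which fell, to let their base composition be compared. Sequences are from RefSeq on GRCh38.p14, a newer build than the authors' hg19, 5′ to 3′ on the gene's strand, and where RefSeq gives several starts the most upstream one was taken. Capitals mark CCAAT on either strand (CCAAT or ATTGG).
PHF1, chr6:33410764-33411013, plus strand: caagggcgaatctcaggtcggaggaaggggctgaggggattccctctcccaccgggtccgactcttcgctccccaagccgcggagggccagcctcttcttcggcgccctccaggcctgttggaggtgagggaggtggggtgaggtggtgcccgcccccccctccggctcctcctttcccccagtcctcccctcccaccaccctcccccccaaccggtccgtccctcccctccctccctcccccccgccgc
MTF2, chr1:93079033-93079282, plus strand: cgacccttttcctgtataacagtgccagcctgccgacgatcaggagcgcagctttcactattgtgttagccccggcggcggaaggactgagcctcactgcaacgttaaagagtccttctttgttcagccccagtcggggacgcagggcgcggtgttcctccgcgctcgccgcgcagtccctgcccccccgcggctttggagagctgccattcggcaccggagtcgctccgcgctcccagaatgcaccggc
PHF19, chr9:120877189-120877438, minus strand: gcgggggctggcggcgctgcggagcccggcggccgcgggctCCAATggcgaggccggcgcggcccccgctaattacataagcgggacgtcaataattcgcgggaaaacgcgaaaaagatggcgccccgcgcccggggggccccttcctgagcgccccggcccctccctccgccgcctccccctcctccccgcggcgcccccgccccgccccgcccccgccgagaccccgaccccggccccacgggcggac
EZH2, chr7:148884292-148884541, minus strand: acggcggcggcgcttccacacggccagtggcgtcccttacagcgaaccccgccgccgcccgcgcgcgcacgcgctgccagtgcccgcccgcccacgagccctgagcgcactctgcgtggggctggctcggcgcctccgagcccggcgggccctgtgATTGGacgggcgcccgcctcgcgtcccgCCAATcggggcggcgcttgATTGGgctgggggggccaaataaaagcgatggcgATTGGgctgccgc
BMI1, chr10:22320849-22321098, plus strand: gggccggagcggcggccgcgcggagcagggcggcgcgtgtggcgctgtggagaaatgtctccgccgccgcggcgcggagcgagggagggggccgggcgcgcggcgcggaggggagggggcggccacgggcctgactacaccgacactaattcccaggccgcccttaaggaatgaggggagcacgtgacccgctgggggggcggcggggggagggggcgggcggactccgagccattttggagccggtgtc
The EZH2 window holds CCAAT 4 times and that of PHF19 1 time, while those of PHF1, MTF2 and BMI1 hold none; 33.0% of 27305 promoter windows of the same length hold at least 1. The GC box GGGCGG, searched on both strands, with no match in these windows overlapping a CCAAT match, occurs 6 times in the BMI1 window, 4 times in those of EZH2 and PHF19 and 1 time in that of PHF1, and it is absent from that of MTF2; 42.2% of all windows hold it. CpG pairs number 15 (PHF1), 25 (MTF2), 39 (PHF19), 38 (EZH2) and 35 (BMI1), against a median of 10 over all windows. No feature counted here was shared by the 3 windows of the genes that rose and missing from the others. Windows were found for 36 of the 38 genes, with a median of 24 CpG pairs. The median was 21 in the 9 genes that rose, 36.5 in the 4 that fell and 22 in the 23 that did not pass. The difference was not tested.

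PRC1 is built on a RING protein and 1 of 6 PCGF proteins. Of these PCGF genes, PCGF2 rose, BMI1 and PCGF3 fell, and PCGF1, PCGF5 and PCGF6 did not pass. PCGF2 (also known as MEL18) and BMI1 (also known as PCGF4) are close paralogues that take the same place in canonical PRC1, the form that carries CBX and PHC subunits. BMI1 stood at 16.2, 14.3 and 13.2 CPM in the siADNP libraries, against 23.4, 24.2 and 18.6 CPM in the siControl libraries. Every siADNP library was below the lowest siControl library, and edgeR gave -0.61 ± 0.12 (log2 fold change ± SE; adjusted p = 0.000122).

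PCGF2 stood at 36.2, 37.8 and 39.9 CPM with siADNP, against 28.8, 31.1 and 32.3 CPM with siControl. The groups did not overlap, and edgeR gave 0.30 ± 0.08 (log2 fold change ± SE; adjusted p = 0.00442). Within libraries, the log2 ratio of BMI1 to PCGF2 counts averaged -1.39 ± 0.22 with siADNP and -0.49 ± 0.27 with siControl (SD, n = 3 each), a difference of -0.90 that does not depend on library scaling. All siADNP libraries were below all siControl libraries, and an exact two-sided permutation test gave p = 0.1, the smallest that 3 libraries against 3 allow (adjusted over the 10 ratios computed, 0.167).

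The BMI1 count carries a limit of annotation. COMMD3-BMI1, a read-through transcript that shares exons with BMI1 and its upstream neighbour COMMD3, is listed with 0 reads in all 6 libraries, it covers 23.3% of the exonic bases of BMI1 in GENCODE release 29, and how reads on shared exons were assigned is not given in the sources used here. COMMD3 itself, at 3.94 ± 0.725 CPM with siADNP and 5.94 ± 0.866 CPM with siControl (SD, n = 3 each), fell with a log2 fold change of -0.59 ± 0.21 (SE; adjusted p = 0.0272, edgeR), a call that ended in DESeq2's Wald test (0.104), with the GC offset (0.0623) and without siADNP replicate 1 (0.112) or 2 (0.0824) or siControl replicate 2 (0.0562) or 3 (0.130). In the same annotation, PCGF2 shares 32.7% of its exonic bases with CISD3 on the opposite strand, and CISD3 had a log2 fold change of 0.12 that did not pass (adjusted p = 0.489, edgeR). The largest such share in the set is that of KDM4A, which has 40.2% of its exonic bases in common with AL451062.3. This protein-coding gene on the same strand is not listed under that symbol in the count table. In all, 8 of the 38 genes share at least 10% of their exonic bases with another gene of that release, and the strand setting of the counting is not given in the sources used here.

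PCGF3, a subunit of a variant PRC1 that lacks CBX proteins, stood at 83.6, 73.7 and 79.6 CPM with siADNP, against 91.6, 89.1 and 88.1 CPM with siControl. It fell by 0.18 ± 0.06 on the log2 scale (adjusted p = 0.0198, edgeR), and the call ended in DESeq2's Wald test (adjusted p = 0.0695) and without siADNP replicate 2 (0.130) or siControl replicate 1 (0.0791). Its close paralogue PCGF5 had a log2 fold change of -0.15 and did not pass (adjusted p = 0.0887, edgeR), but passed without siControl replicate 1 (-0.20, adjusted p = 0.0471). PCGF1 and PCGF6, subunits of other variant forms, had log2 fold changes of -0.03 and 0.03 and did not pass.

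Per kb of transcript, PCGF6 was the most abundant PCGF gene, with 33.0 ± 2.61% of the family's reads per kb in siADNP libraries and 31.3 ± 0.470% in siControl libraries (SD, n = 3 each). PCGF2 made up 17.5 ± 0.323% with siADNP and 13.7 ± 0.680% with siControl, and BMI1 6.01 ± 0.812% and 8.80 ± 1.20%. The shares of these 2 genes did not overlap between the groups, and those of the other 4 genes did. The limits of annotation given above for BMI1 and PCGF2 hold for these shares too, so the order of the genes is uncertain.

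**Figure D3:**
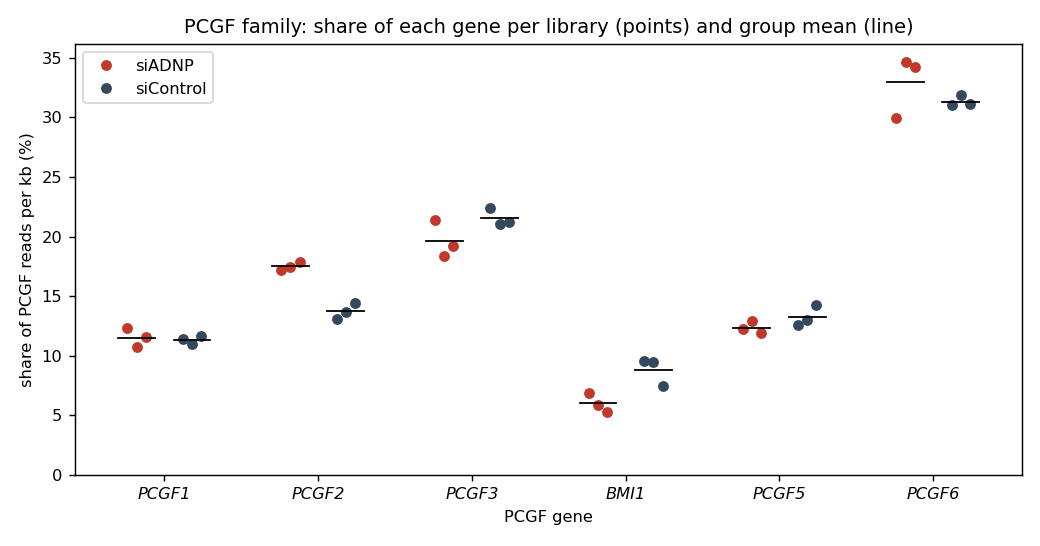
Share of each PCGF gene in the reads per kb of the 6 PCGF genes, in percent, for the 3 siADNP libraries (left of each pair) and the 3 siControl libraries (right), with the group mean as a line. PCGF2 lies higher with siADNP (17.5% against 13.7%) and BMI1 lower (6.01% against 8.80%), and the points of the other genes overlap between the groups. BMI1 and PCGF2 share exons with other genes, so the order of the genes is uncertain.

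RING1 rose, whereas its paralogue RNF2 (RING1B) did not pass; both are E3 ligases of PRC1. RING1 stood at 29.3, 31.6 and 33.2 CPM with siADNP, against 24.0, 28.4 and 25.6 CPM with siControl, with a log2 fold change of 0.27 ± 0.09 (SE; adjusted p = 0.0241, edgeR). RNF2 stood at 56.0, 56.7 and 52.7 CPM with siADNP, against 52.6, 57.4 and 54.9 CPM with siControl. Its log2 fold change of 0.01 has an interval of -0.13 to 0.14. The log2 ratio of RING1 to RNF2 averaged -0.82 ± 0.14 with siADNP and -1.08 ± 0.06 with siControl (SD, n = 3 each), with no overlap (exact two-sided permutation p = 0.1, the smallest possible). The RING1 call ended in DESeq2's Wald test (adjusted p = 0.0895), with the GC offset (log2 fold change 0.16, adjusted p = 0.193) and without siADNP replicate 2 (0.0619) or 3 (0.0931) or siControl replicate 1 (0.133) or 3 (0.0692).

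The CBX subunits of canonical PRC1, which read methylated lysine 27, gave no call among the 4 genes. CBX2 and CBX6 had log2 fold changes of -0.12 and -0.16, and CBX7 and CBX8 of -0.03 and 0.08. For each of the 4 genes the groups overlapped. CBX6 averaged 80.6 ± 4.76 CPM with siADNP and 90.05 ± 10.7 CPM with siControl (SD, n = 3 each). The siControl libraries stood at 77.8, 97.6 and 94.8 CPM, so replicate 1 was the low one. CBX6 passed without siControl replicate 1 (log2 fold change -0.26, adjusted p = 0.00671, edgeR), with the GC offset (-0.25, adjusted p = 0.00522) and without a filter on low counts (-0.17, adjusted p = 0.0405). CBX7 was the least expressed gene of the set, at 3.60 to 5.69 CPM with siADNP and 3.86 to 5.41 CPM with siControl, and its interval of -0.46 to 0.40 was the widest of the set, so that small changes were not detectable at this depth.

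Of the PHC subunits, which polymerise through a SAM domain, PHC2 rose and PHC1 and PHC3 did not pass. PHC2 stood at 216, 205 and 201 CPM with siADNP, against 189, 188 and 179 CPM with siControl, with a log2 fold change of 0.16 ± 0.05 (SE; adjusted p = 0.0145, edgeR). Its transcript has a GC content of 59.7%, and with the GC offset the log2 fold change was 0.07 and did not pass (adjusted p = 0.342); the call also ended without siADNP replicate 1 (0.0759) or siControl replicate 3 (0.0895). PHC2 made up 77.7 ± 0.528% of the family's reads per kb with siADNP and 75.0 ± 1.56% with siControl (SD, n = 3 each), so it was the main PHC transcript in both groups. PHC1 and PHC3 had log2 fold changes of 0.12 and -0.09, and all siADNP libraries of PHC1 were above all siControl libraries.

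The 5 methyltransferases of lysine 9 in the set gave 1 rise and 1 fall (40% called, beside 28.3% of all tested genes). EHMT2 (G9a), which deposits mono- and dimethylation, stood at 129.8, 133 and 128 CPM with siADNP, against 109.5, 112 and 109 CPM with siControl. The spread within each group was small beside the difference, and edgeR gave 0.24 ± 0.05 (log2 fold change ± SE; adjusted p = 0.000689). The GC offset gave 0.14 (adjusted p = 0.0474), and that offset together with a replicate block ended the call (0.0674). Its heterodimer partner EHMT1 (GLP) stood at 123.5 to 125.5 CPM with siADNP and at 125.5 to 131 CPM with siControl, at -0.04 (log2 fold change) with an interval of -0.14 to 0.07.

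The log2 ratio of EHMT2 to EHMT1 was 0.05, 0.10 and 0.05 in the siADNP libraries, against -0.20, -0.22 and -0.21 in the siControl libraries. EHMT2 counts thus exceeded EHMT1 counts in every siADNP library and fell short of them in every siControl library (exact two-sided permutation p = 0.1, the smallest possible). Counts are not levels per molecule, since the 2 transcripts differ in length. Per kb of the longest transcript EHMT2 was higher in both groups, at 31.6 ± 0.596 CPM per kb with siADNP and 26.7 ± 0.404 with siControl, while EHMT1 stood at 15.9 ± 0.126 and 16.3 ± 0.388 (SD, n = 3 each). This order rests on lengths of 4129 bases for EHMT2 and 7842 for EHMT1, and the transcript forms present were not measured.

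The trimethylating enzymes of pericentric heterochromatin are SUV39H1 and SUV39H2. SUV39H2 stood at 28.8, 28.4 and 27.1 CPM with siADNP, against 33.6, 31.2 and 34.1 CPM with siControl, and fell by 0.23 ± 0.08 on the log2 scale (adjusted p = 0.0414, edgeR). Its adjusted p was the highest among the 13 calls of the set. The call ended in 11 of 17 alternatives, among them without siADNP replicate 1 (adjusted p = 0.0603), 2 (0.0731) or 3 (0.122), without siControl replicate 1 (0.112) or 3 (0.125), with the replicate block (0.0522), with the GC offset (0.152) and in DESeq2's Wald test (0.138). SUV39H1 stood at 31.1, 26.95 and 26.98 CPM with siADNP, against 29.04, 25.4 and 27.4 CPM with siControl, and did not pass (log2 fold change 0.06, adjusted p = 0.678). SETDB1, the enzyme recruited by KRAB zinc finger proteins through TRIM28, averaged 55.3 ± 4.77 CPM with siADNP and 58.7 ± 1.27 CPM with siControl (SD, n = 3 each) and did not pass (-0.08, adjusted p = 0.386).

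Among the demethylases, KDM1A and KDM4A rose and the other 8 did not pass (20% called, beside 28.3% of all tested genes). KDM1A (LSD1), which removes methyl groups from lysine 4 in the CoREST complex, stood at 204, 232 and 223 CPM with siADNP, against 190.4, 180.5 and 198 CPM with siControl. Its log2 fold change was 0.21 ± 0.05 (SE), with an adjusted p of 0.00222 (edgeR), and its level per kb of transcript was 71.8 ± 4.59 CPM per kb with siADNP and 62.0 ± 2.90 with siControl (SD, n = 3 each). SUZ12 stood at 61.2 ± 1.61 CPM per kb with siADNP and 65.1 ± 2.31 with siControl, and PHC2 at 53.5 ± 1.98 with siADNP and 47.9 ± 1.40 with siControl. These were the 3 highest levels per kb of the set in both groups. KDM1A ranked first with siADNP, above SUZ12 by more than the SD of either, and SUZ12 ranked first with siControl, above KDM1A by about their SDs.

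KDM4A, a demethylase of lysines 9 and 36, stood at 98.5, 104.4 and 96.5 CPM with siADNP, against 84.1, 83.9 and 86.0 CPM with siControl. The groups lay well apart, and edgeR gave 0.24 ± 0.06 (log2 fold change ± SE; adjusted p = 0.00161); reads on the exons shared with AL451062.3 cannot be told apart. Its paralogues KDM4B and KDM4C had log2 fold changes of -0.09 and -0.19 and did not pass (adjusted p = 0.528 and 0.107). All siADNP libraries of KDM4C were below all siControl libraries. KDM1B, the paralogue of KDM1A, had 0.13 (adjusted p = 0.155) with no overlap between the groups, and passed with the GC offset (0.18, adjusted p = 0.0315).

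The lysine 36 demethylases KDM2A and KDM2B, the second of which recruits variant PRC1 to CpG islands, had log2 fold changes of -0.11 and 0.02. KDM3B, a lysine 9 demethylase, had 0.10, and the lysine 4 demethylases KDM5A and KDM5B had 0.02 and -0.05. For these 5 genes the groups overlapped, and each interval lay inside a 1.25-fold change in either direction.

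In 6 of 10 ratios between paralogues within libraries the groups did not overlap, and each of these 6 pairs holds a called gene. Among all tested genes, taken singly, 40.8% did not overlap, and the share over other gene pairs was not computed. Besides BMI1 to PCGF2, RING1 to RNF2 and EHMT2 to EHMT1, the ratios without overlap were SUV39H1 to SUV39H2 (mean log2 difference 0.28), KDM4A to KDM4B (0.32, and 0.18 without siADNP replicate 2, where KDM4B was lowest) and EZH1 to EZH2 (0.12). Each had an exact two-sided permutation p of 0.1, the smallest possible, and 0.167 after adjustment over the 10 ratios, so none could pass at this number of libraries. The ratios of CBX2 to CBX8, KDM1A to KDM1B, KDM5A to KDM5B and PHF1 to PHF19 overlapped between the groups, the last with a difference of 0.14. EZH1 averaged 16.9 ± 0.273% of the reads per kb of both EZH genes with siADNP and 15.8 ± 0.236% with siControl (SD, n = 3 each), so EZH2 was the main transcript in both groups.

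GC content of the transcripts moved with the direction of change, in the set as in all genes. The 9 genes that rose had a median GC content of 57.9% and the 4 that fell 41.9%, against 54.1% for all genes called higher and 43.0% for all called lower. MTF2, with 37.9%, stood outside this pattern. With a per-gene offset for GC content, the log2 fold changes were 0.53 for PHF1, 0.40 for PHF19, 0.37 for MTF2, 0.23 for PCGF2, -0.23 for EZH2 and -0.54 for BMI1, and all 6 still passed (adjusted p at most 0.0340, edgeR). KDM1A and KDM4A, at 0.20 and 0.23, passed as well.

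**Figure D4:**
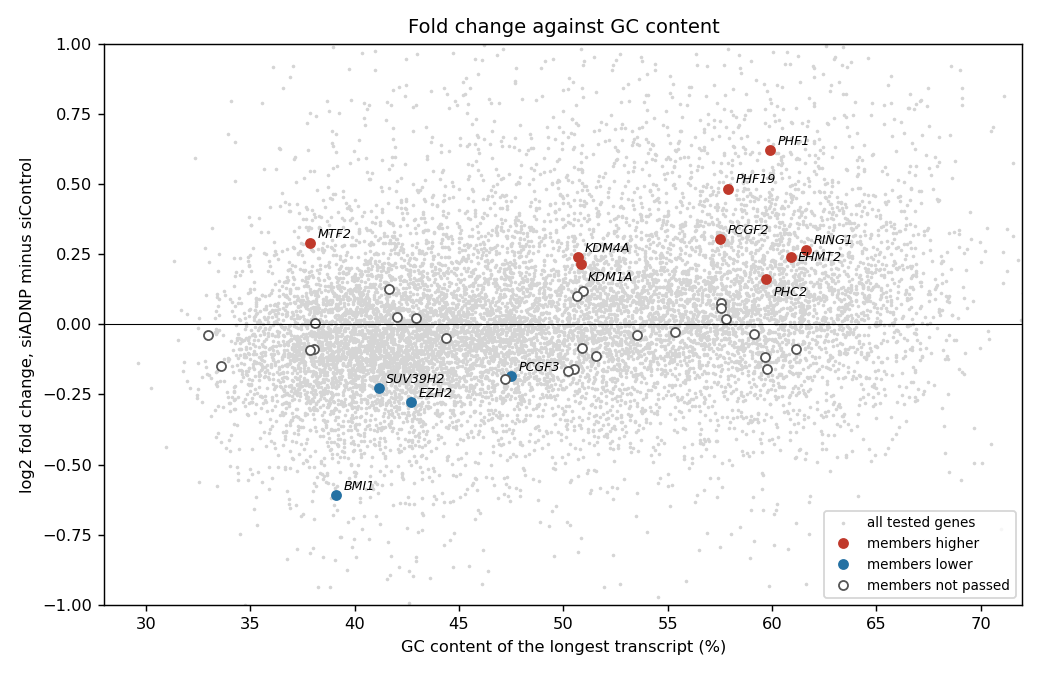
Log2 fold change, siADNP minus siControl, against GC content of the longest transcript in percent, for 11952 tested genes (grey; 150 lie outside the axes) and the 38 genes of the set, coloured by call. The 9 genes of the set that rose have a median GC content of 57.9% and the 4 that fell 41.9%; MTF2 rose (0.29) at 37.9%.

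Further genes of Polycomb and of histone lysine methylation were read from 8 lists of 91 genes, of which 86 could be tested. Among these, 11 rose, 13 fell and 62 did not pass, 27.9% called against 28.3% of all tested genes. By list, the share called ran from 6.67% (variant PRC1, 15 tested) to 60% (further PRC2 subunits, 5 tested). The count of 11 rises was 7 in DESeq2's Wald test, and it was 6 with the GC offset, without siADNP replicate 2 and without siControl replicate 1 or 2. Of 15 tested genes of variant PRC1, SKP1, an adaptor of a ubiquitin ligase, fell with a log2 fold change of -0.14, and 14 did not pass. The SKP1 call (adjusted p = 0.0442, edgeR) ended in 12 of 17 alternatives, and the adjusted p was 0.0543 to 0.143 whichever library was left out.

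Of 7 tested Polycomb genes with SAM or MBT domains, 3 fell and none rose, beside 13.7% of all tested genes called lower and 14.6% called higher. The direction of this short list was not tested. SFMBT1 stood at 33.9, 34.2 and 33.6 CPM with siADNP, against 50.3, 50.1 and 48.8 CPM with siControl. The groups lay far apart beside their spread (log2 fold change -0.55 ± 0.07, SE; adjusted p = 3.65e-07, edgeR). SCML2 fell with -0.38 (adjusted p = 0.00153) and L3MBTL3 with -0.22 (adjusted p = 0.00484), the second of which did not pass without siControl replicate 2 (0.0741).

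Of 7 tested genes of the complex that removes ubiquitin from H2A, HCFC1 (0.18), FOXK1 (0.19) and ASXL1 (0.15) rose and FOXK2 (-0.15) fell, in log2 fold changes. This short list gave 57.1% called, beside 28.3% of all tested genes (14.6% higher and 13.7% lower), and was not tested as a group. HCFC1 and FOXK1 did not pass with the GC offset (adjusted p = 0.227 and 0.126, edgeR), nor FOXK1 without siADNP replicate 2 (0.0526). ASXL1, a partner of the deubiquitinase BAP1, did not pass whichever library was left out (0.0534 to 0.169). It lost its call in 11 of 17 alternatives, among them the GC offset (0.0552) and DESeq2's Wald test (0.124). FOXK2 did not pass without siADNP replicate 2 (0.0843) or 3 (0.0746) and neither without siControl replicate 1 (0.188) or 3 (0.0713). Its call also ended with upper-quartile scaling (0.0808), with scaling by library totals (0.0554) and in DESeq2's Wald test (0.08225).

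Of 14 tested genes of lysine 4 methyltransferase complexes, WDR82 (log2 fold change 0.21) and MEN1 (0.18), which encodes menin, rose and 12 did not pass. The share called was 14.3%, beside 28.3% of all tested genes. WDR82, a subunit of the SET1 complexes, kept its call in all alternatives. MEN1 lost it in 9 of 17, among them the GC offset (adjusted p = 0.311, edgeR), the replicate block (0.0522) and without siADNP replicate 2 (0.152) or siControl replicate 1 (0.102), 2 (0.0996) or 3 (0.0520).

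Of 13 tested genes listed as methyltransferases of lysines 36 and 79 of H3 and lysine 20 of H4, SETD7 and ASH1L rose and DOT1L and SETD8 fell. These calls made up 30.8% of the list, near the 28.3% of all tested genes. DOT1L, the lysine 79 enzyme, stood at 97.5, 95.9 and 81.7 CPM with siADNP, against 123, 124 and 116 CPM with siControl. All siADNP libraries were below all siControl libraries (log2 fold change -0.40 ± 0.06, SE; adjusted p = 4.12e-06, edgeR). SETD7, known for methylating lysine 4 of H3, had 0.28 and passed in all alternatives. ASH1L (0.20) had overlapping groups and did not pass without siADNP replicate 1 (adjusted p = 0.0677) or 2 (0.0874) or siControl replicate 1 (0.0677) or 2 (0.0910). SETD8 (-0.16) lost its call without siADNP replicate 1 (0.0956) or siControl replicate 1 (0.108) or 2 (0.152). The SETD8 call also ended with upper-quartile scaling (0.0651) and in DESeq2's Wald test (0.08685).

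Of 11 tested genes listed with the cofactors and readers of lysine 9 methylation, 1 rose and 2 fell (27.3% called, near the 28.3% of all tested genes). CBX1, a heterochromatin protein 1 gene, rose with a log2 fold change of 0.25 ± 0.05 (SE; adjusted p = 0.000609, edgeR). SETDB2, a paralogue of the methyltransferase SETDB1 rather than a cofactor or reader, fell with -0.53 ± 0.12 (SE; adjusted p = 0.00122, edgeR) and kept its call in all alternatives. PPHLN1, a subunit of the HUSH silencing complex, fell with -0.20 and did not pass with the GC offset (0.0724) or without siADNP replicate 2 (0.0551) or siControl replicate 1 (0.0553).

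Of 14 tested further demethylases and their cofactors, 1 rose and 3 fell (28.6% called, near the 28.3% of all tested genes). KDM6B, which removes methyl groups from the lysine that PRC2 methylates, stood at 35.2, 36.1 and 36.3 CPM with siADNP, against 44.7, 49.5 and 50.2 CPM with siControl. It fell in all alternatives tried, with a log2 fold change of -0.42 ± 0.08 (SE; adjusted p = 4.41e-05, edgeR). JMJD1C and MINA fell with -0.21 and -0.23. RCOR2, a CoREST subunit, rose with 0.60 (adjusted p = 0.0375) at 4.87 ± 0.615 CPM with siADNP and 3.21 ± 0.469 CPM with siControl (SD, n = 3 each), and did not pass with the GC offset (0.0942) or without siADNP replicate 1 (0.130) or 3 (0.0840) or siControl replicate 1 (0.1002) or 2 (0.138). DESeq2's Wald test did not call RCOR2 either (0.133).

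HOX genes are classical targets of Polycomb repression. Of 39 listed, 24 could be tested, of which 5 rose, none fell and 19 did not pass. That is 20.8%, against 14.6% of all tested genes called higher and 28.3% called in either direction. The groups did not overlap in 7 of the 24 genes, against 40.8% of all tested genes. The median log2 fold change of the 24 genes was 0.26, against -0.00130 for all tested genes, and the difference was not tested. Some of the 24 had few reads, such as HOXC8 with 6 to 15 per library, so their fold changes are imprecise. The 5 that rose had 51.6% to 55.7% GC in their transcripts, against a median of 48.4% over all tested genes and 54.1% over all called higher. The part of GC content and of low counts in the median fold change was not tested. HOXB9 stood at 23.8, 27.75 and 27.1 CPM with siADNP, against 17.2, 20.5 and 17.7 CPM with siControl. The groups did not overlap (log2 fold change 0.50 ± 0.10, SE; adjusted p = 0.000254, edgeR), and HOXB6 rose with 0.35 (adjusted p = 0.00293).

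The other HOX calls were weaker. HOXB3 (0.49) lost its call without siADNP replicate 2 (adjusted p = 0.0691, edgeR) or siControl replicate 1 (0.0992), HOXB5 (0.48) without siADNP replicate 1 (0.192) or siControl replicate 1 (0.169), and HOXA7 (0.30) without siADNP replicate 1 (0.139) or 3 (0.176) or siControl replicate 1 (0.0677) or 3 (0.228). The HOXA7 groups overlapped, and neither the GC offset (0.0937) nor the replicate block (0.0635) kept its call. The 5 rises were 2 in DESeq2's Wald test and without siControl replicate 1, and 3 without siADNP replicate 1. In the Wald test HOXB3 (0.0678), HOXB5 (0.0827) and HOXA7 (0.126) did not pass. HOXB5 also lost its call with the GC offset and a replicate block (0.0726, edgeR).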

How the data were processed

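RNA of HCT116 cells was measured in 3 siADNP and 3 siControl libraries. The authors deposited raw counts of reads per gene symbol without normalization and a second table of variance-stabilized log2 values. Per the submitters' processing notes, STAR, HTSeq and DESeq2 were used with the hg19 build; of versions, gene annotation, strand setting and transformation settings, nothing is stated in those notes. Lines of the count table that name no gene (the no-feature line alone took 53.5% to 55.7% of reads per library) entered neither library sizes nor tests. Together they took 72.79% to 73.57% in siADNP libraries and 71.65% to 72.29% in siControl libraries. The groups did not overlap, and the part of this difference in the results was not tested.

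Counts went into edgeR 4.0.16 under R 4.3.3 (TMM scaling, filterByExpr with a minimum count of 10, glmQLFit and glmQLFTest, two-sided, Benjamini-Hochberg adjustment over all tested genes), with calls made below an adjusted p of 0.05. The SE of a log2 fold change is its size over the root of F. Levels are CPM scaled with TMM. Levels per kb divide by the longest transcript in GENCODE release 29, which also gave GC content and exon overlaps. Transcript forms were not measured, so any order of genes per kb depends on these lengths. The fold changes that the fit returns were checked on simulated counts. These had the same dispersion for every gene and no GC trend, so they do not give the rate of false calls in the real data. Alternatives were DESeq2 1.42.0 (its size factors and its Wald test), limma 3.58.1 on the deposited log2 values, other scalings and filters, GC and length offsets, a replicate block and leaving out each library.

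The genes of the set and the lists were chosen with earlier results of these data known. The naming rule took ADNP, all 38 genes of the set (values per library for called genes and 8 fixed ones) and, from each further list, up to 3 called genes with the smallest p. COMMD3, COMMD3-BMI1, CISD3, AEBP2, RBBP4, ASXL1, SETD8, RCOR2, HOXB5 and HOXA7 were named after their values were seen. Older symbols were matched through RefSeq and GENCODE names, and 89 of 91 further genes were found. Figures were drawn with matplotlib 3.10.9.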

Additional observations from a re-analysis of the deposited data

How the results depend on the processing

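Across 72 genes and 17 alternatives, 1091 of 1224 log2 fold changes kept their side of the threshold, 125 lost a call, 8 gained one and none reversed while called. Of the 1091, 23 changed sign, all in 10 genes of the set that were not called (CBX7, EED, KDM2B, KDM4B, KDM5A, KDM5B, PCGF1, PCGF6, RNF2 and SUV39H1). Of the 13 called genes of the set, 8 passed in all 17 alternatives (EZH2, PHF1, MTF2, PHF19, PCGF2, BMI1, KDM1A and KDM4A). PCGF3, RING1, PHC2, SUV39H2 and EHMT2 each lost the call in at least 1; the cause was not tested. DESeq2's Wald test called 1243 genes higher and 1160 lower, against 1824 and 1714 with edgeR, and it called 2 genes of the set lower, 7 genes of the further lists higher and 2 HOX genes higher. The GC offset called 6 further genes higher, and with the replicate block as well it called 6 further genes and 3 HOX genes higher. Leaving out 1 library gave 7 to 9 genes of the set higher and 2 to 4 lower; it was 2 without siADNP replicate 2. It gave 6 to 9 further genes higher and 9 to 13 lower, 2 to 6 HOX genes higher, and 1470 to 1655 of all genes higher and 1307 to 1508 lower.

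The replicate numbers are shared by both groups. Deviations of same-numbered libraries had r = 0.02, -0.04 and -0.03 across genes, and those of different-numbered libraries lay between -0.03 and 0.06. With 3 libraries per group, such values cannot show whether the numbers mark pairs. With the replicate block, 1694 genes were called higher and 1542 lower, 9 of the set higher and 3 lower (SUV39H2 did not pass, adjusted p = 0.0522, edgeR), 9 further genes higher and 12 lower, and 4 HOX genes higher. Without 1 library, the log2 difference ranged over -1.06 to -0.80 for BMI1 to PCGF2, -0.26 to -0.11 for CBX2 to CBX8, 0.26 to 0.28 for EHMT2 to EHMT1, 0.10 to 0.13 for EZH1 to EZH2, 0.06 to 0.13 for KDM1A to KDM1B, 0.18 to 0.42 for KDM4A to KDM4B, -0.03 to 0.20 for KDM5A to KDM5B, 0.09 to 0.20 for PHF1 to PHF19, 0.19 to 0.33 for RING1 to RNF2 and 0.23 to 0.33 for SUV39H1 to SUV39H2. Depth limited mainly CBX7, whose counts were the lowest of the set.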
